A study of Mus musculus with 10 samples.

Results

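The cytosolic ribosomal protein genes were taken from the RNA-seq counts by their symbols. Every row named *Rpl* or *Rps* followed by a digit was used, without rows marked -ps (pseudogenes) and without the *Rps6k* kinases, and *Rplp0*, *Rplp1*, *Rplp2* and *Rpsa* were added. The rule took 87 of 24062 gene rows. Of these, 78 are the members described here, 46 of the large and 32 of the small subunit, and 8 paralogs (6 whose symbols end in l, and *Rpl22l1* and *Rpl7l1*) and *Rps19bp1*, which encodes a nucleolar partner of RPS19 and no ribosomal protein, were kept apart.

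RNA was sequenced from 10 populations grown out of bone marrow LSK cells (Lin- SCA1+ KIT+) of C57BL/6J mice, all without genetic modification. DN1 (KIT++ CD44+ CD25-), DN2a (KIT++ CD44+ CD25+) and DN2b (KIT+ CD44lo CD25+) cells, with 2 libraries each, were sorted from cultures on a high density of immobilized Delta1ext-IgG, a Notch ligand. The 4 control libraries (labelled WT IgG, and D1, D2, R1 or R2) came from LSK cells held on human IgG, without Notch activation, until day 14. All cultures received SCF, FLT-3 ligand, IL-6 and IL-11. IL-7 was added for DN2a and DN2b and not for DN1, so the effect of IL-7 and of stage cannot be told apart. By the methods it was added to the Delta1 cultures at day 14, and none is described for the control. In DN2a and DN2b over the control, IL-7, a longer culture and Notch activation therefore cannot be told apart. The DN populations were sorted and no sort is described for the control, so sorting and Notch activation cannot be told apart in any comparison with the control. The libraries of a DN stage carry different dates in their labels and are called the earlier and the later one, and values of a stage are given in that order.

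Ribosomal proteins assemble with rRNA into the small and the large subunit of the cytosolic ribosome, and cells that grow and divide make large amounts of both. Their mRNAs begin with a run of C and T (the terminal oligopyrimidine, or TOP, start) through which mTOR and LARP1 adjust their translation. In blood cells the supply of these proteins matters in particular ways: loss of RPS19 or RPS14 impairs red cell production, loss of RPL22 blocks αβ T cell development, and RPL5, RPL10 and RPL22 are mutated in T cell leukaemia.

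The start sites were examined for this feature. RefSeq start windows (GRCm38.p6) were found for 58 of the 78 members. A start at C followed by 4 or more C or T bases was annotated for 14 of the 58 (24.1%), against 3.01% of the 27025 genes in the same table. The letters CCGGAAG, an ETS-type motif, read on either strand between 250 bases before and 50 after a start, occurred in 24 of the 58 (41.4%) and in 9.93% of all genes. A match in these windows is a description of sequence and not evidence of use. Of the windows with such a start, 5 are shown because their genes recur in the results, 10 bases before and 20 after the start, with the run of pyrimidines that begins at the start in capitals.
Rps6 (chr4:86857348-86857377, minus strand): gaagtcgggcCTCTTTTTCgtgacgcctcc
Rpl14 (chr9:120571507-120571536, plus strand): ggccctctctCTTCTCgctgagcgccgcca
Rpl38 (chr11:114668570-114668599, plus strand): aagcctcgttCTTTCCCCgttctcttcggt
Rplp2 (chr7:141447641-141447670, plus strand): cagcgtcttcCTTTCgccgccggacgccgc
Rps15a (chr7:118116128-118116157, minus strand): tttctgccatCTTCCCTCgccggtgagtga

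Between 12354635 and 35367925 reads per library were counted on genes. Levels are given as CPM, the counts scaled to the same total on genes in each library. Multiply aligned reads were left off every gene and made up 16.4% to 30.1% of all tallied reads. This matters for the members, because most have near-identical processed copies in the genome: of the stretches of 36 bases in their annotated transcripts, the length that was aligned, at least 50% were found in no other annotated gene for only 19 of the 78. Counts of the others are uncertain. Most markers went with the labels. The 11 early T cell markers summed to 1083 to 5089 CPM in DN and 548 to 794 in the control. Of the 11, 8, 8 and 7 rose in DN1, DN2a and DN2b (*Il2ra*, *Tcf7*, *Bcl11b* and others), whereas *Cd44* fell in all 3, with 11.1 to 173 CPM in DN and 356 to 566 in the control, and *Il7r* fell in DN1 and DN2a, with 9.45 to 40.0 CPM in DN and 34.3 to 264 in the control. The 6 macrophage and monocyte genes (*Csf1r*, *Lyz2* and others) summed to 8754 to 16337 CPM in the control and 5.34 to 359 in DN, and all 6 fell in each stage. The 6 neutrophil precursor genes (*Mpo*, *Elane* and others) reached 19727 to 57275 CPM in the control. Control library D2 had the highest of these neutrophil sums, and the earlier DN1 library was the DN library with the most, 2659 CPM, besides 165 CPM of 5 erythroid genes, which summed to at most 6.80 CPM in any other library. The 4 mast cell and basophil genes moved with the contrast in their sum, which was 339 to 3830.2 CPM in DN, highest in the earlier DN1 library, and 28.7 to 125 in the control. *Cpa3* and *Gzmb* rose in all 3 stages, *Fcer1a* rose in DN1 and fell in DN2b, and *Mcpt8* fell in DN2a and DN2b. The 4 B cell markers summed to under 5 CPM in every library. The part of other cell types in the results was not tested.

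Ribosomal protein mRNAs took up a large part of the counted reads and more of them in the DN stages than in most controls. The earlier and the later DN1 library spent 14.6% and 16.5% of counts on the members, those of DN2a 16.1% and 21.4%, and those of DN2b 17.8% and 21.2%. Control libraries D1, R1 and R2 held 6.10%, 6.0% and 7.18%, and D2 held 14.7%. D2 thus lay just above the lowest DN library, and the other 3 controls lay below every DN library by more than 7 percentage points. The 6 DN libraries averaged 17.9% ± 2.80 (SD, n = 6) and the 4 controls 8.49% ± 4.17 (SD, n = 4), a ratio of 2.11, which was 2.79 without D2, a library set aside after its values were seen. By the study's methods, the DN stages were sorted from each LSK isolate. The 6 DN libraries may thus share isolates, and the SD of their summed share is a spread between libraries. No p is given for this sum, because its members were chosen with results known. In bulk RNA, more cells with high levels and more RNA per cell cannot be told apart. The shares give counting precision far finer than the spread between libraries, since at least 1258047 reads stood behind each sum.

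**Figure D1:**
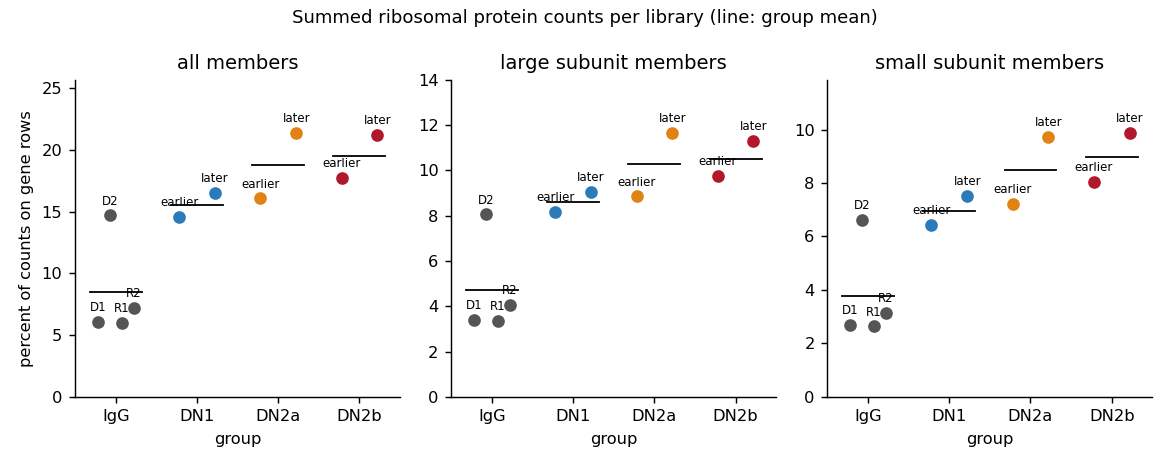
Counts on all 78 members (left), on the 46 large subunit members (middle) and on the 32 small subunit members (right), as a percent of counts on gene rows, 1 point per library with its name and a line at each group mean. The 6 DN libraries lie between 14.6% and 21.4% for all members, and control library D2 at 14.7% lies apart from the other 3 controls at 6.0% to 7.18%.

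Both subunits took part. Large subunit members held 8.16% to 11.7% of counts in the DN libraries and 3.37% to 8.06% in the controls, and small subunit members held 6.43% to 9.89% and 2.64% to 6.64%. For the large subunit every DN library was above every control, by a margin of 8.16% against 8.06%. The ratio of small to large subunit counts stayed between 0.772 (control R2) and 0.875 (the later DN2b library). Within each DN stage the later library had the higher sum, and 54, 74 and 69 of the 77 members with counts were higher in it in DN1, DN2a and DN2b. The share of all genes higher in the later library is not given here, so whether this is particular to the members cannot be told. The date was not tested as a factor.

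Each member was then compared between groups with edgeR's quasi-likelihood test in 1 fit of all 10 libraries, with Benjamini-Hochberg adjustment over 12221 genes. All of the 77 tested members had a log2FC above 0 in each of the 3 comparisons with the control, and none was lower at an adjusted p under 0.05. In DN1, 3 of 77 (3.90%) rose (*Rpl14*, *Rpl30* and *Rpl34*), against 14.3% of all genes that were called higher and 17.0% lower. In DN2a, 22 of 77 (28.6%) rose, against 21.2% of all genes higher and 24.3% lower, and in DN2b 22 of 77 rose, against 19.9% higher and 22.5% lower. In this fit the members' share of upward calls was below the background in DN1 and above it in DN2a and DN2b, but the latter depended on which libraries were in the fit. Among the 10 fits that each left out 1 library, the members' share was above that of all genes in 1 in DN2a (without control D2) and in 3 in DN2b (without D2 or either DN1 library), and it was below it in the other 9 and 7. Of the 9 other settings, the share was above that of all genes in 7 in both DN2a and DN2b, among them R1 and R2 as the only controls (98.7% of the members in each, against 21.3% and 20.2%). It was below in 2, the fits of only the groups compared (10.4% against 20.6% in DN2a and 7.79% against 17.1% in DN2b) and those with D1 and D2 as the only controls (3.9% in each, against 13.1% and 10.6%). The median log2FC was 0.58, 1.03 and 1.06 for the members in DN1, DN2a and DN2b, beside 0.01, -0.05 and -0.05 for all genes tested. By subunit, 15 of 46 large and 7 of 31 small subunit members rose in DN2a (medians 1.01 and 1.04) and 13 and 9 in DN2b (medians 1.0 and 1.07), and the 3 that rose in DN1 were of the large subunit. At an unadjusted p under 0.05 the counts were 4, 46 and 51 of 77 (5.19%, 59.7% and 66.2%), against 43.5%, 53.9% and 52.2% of all genes in either direction.

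How many members passed turned on control library D2. Without it, 73 of 77 rose in DN1, 77 in DN2a and 76 in DN2b, with medians of 1.08, 1.53 and 1.6, while the share of all genes called higher was 16.4%, 23.5% and 22.3%. The members that did not pass then were *Rpl10*, *Rpl26*, *Rps27* and *Rps27a* in DN1 and *Rps27* in DN2b. The DN1 count was 2 without any other single library (2.6%, against 6.68% to 13.6% of all genes). Without control D1, R1 or R2 the DN2a count was 5, 5 and 7, against 19.0%, 16.1% and 19.3% of all genes, and the DN2b count was 7, 5 and 7, against 17.9%, 14.5% and 17.5%, so that 6.49% to 9.09% of the members passed in these fits. The DN2a count fell to 2 without the earlier or the later DN2a library (10.8% and 12.8% of all genes). It was 12 and 13 without the earlier and the later DN2b library (15.6% and 16.9%, against 20.3% and 20.4%) and 16 without either DN1 library (20.8%, against 21.6%). The DN2b count was 4 and 2 without the earlier and the later DN2b library (10.8% and 13.6% of all genes), 12 and 13 without the earlier and the later DN2a library (17.6% and 17.7%), and 20 without either DN1 library (26.0%, against 20.8% and 20.7%). Compared library by library, 28 of 77 members had every DN library above every control, against 21.7% of all genes with such a split upward and 16.5% downward. No member was split downward. With D2 set aside, all 77 were split upward, against 25.0% of all genes. D2 was set aside after its high member values were seen. Leaving out a control can only keep or raise the number of upward splits, so the values without D2 are no independent support. The 19 members with at least 50% unique stretches had medians of 0.56, 1.02 and 1.01, beside 0.58, 1.03 and 1.06 for the others. None of the 19 passed in DN1, and 3 (15.8%) and 6 (31.6%) passed in DN2a and DN2b. Of the other 58, 5.17%, 32.8% and 27.6% passed in DN1, DN2a and DN2b. Over all genes 14.3%, 21.2% and 19.9% were called higher, so the 19 were below this share in DN1 and DN2a and above it in DN2b.

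**Figure D2:**
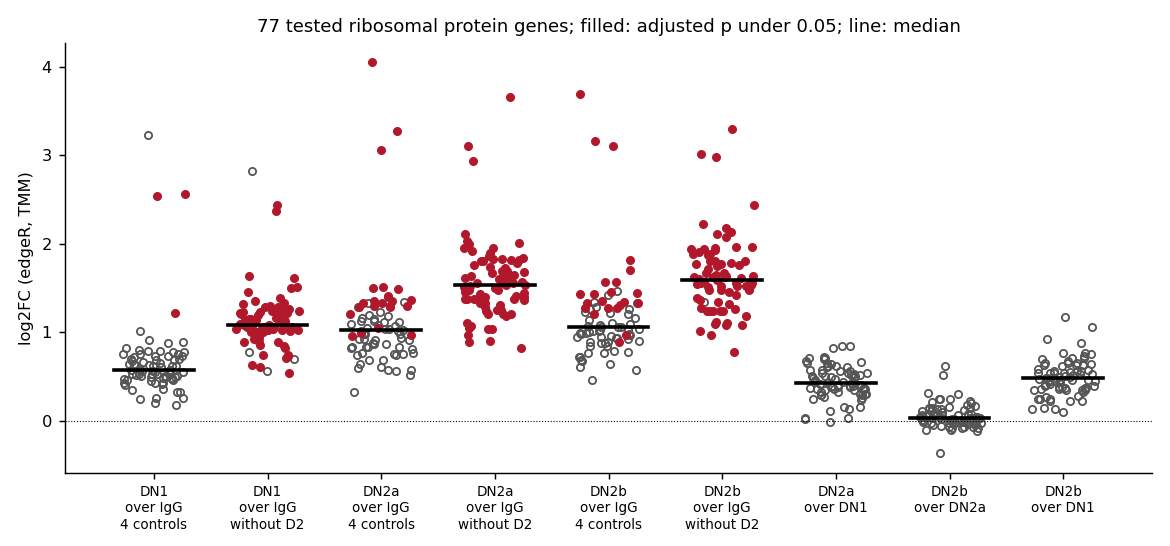
The log2FC from edgeR of each of the 77 tested members in 6 comparisons, 1 point per gene, with a line at the median; comparisons with the control are drawn with all 4 control libraries and without D2. Points are filled at an adjusted p under 0.05: 3, 22 and 22 are filled with all controls, 73, 77 and 76 without D2, and none between DN stages. D2 was set aside after its high member values were seen.

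The members known best in lymphocytes and their precursors showed the pattern in single libraries. *Rpl22*, whose protein is needed by αβ T cell precursors, had 944 and 897 (DN1), 834 and 1129 (DN2a), 912 and 1171 (DN2b), and 352, 858, 315 and 407 (controls D1, D2, R1 and R2) CPM. Every DN library except the earlier DN2a library was above D2, and all were well above the other controls. Its log2FC was 0.62 ± 0.44, 0.92 ± 0.43 and 0.99 ± 0.43 (SE) in DN1, DN2a and DN2b over the control and did not pass the test (adjusted p = 0.304, 0.111 and 0.0917, edgeR). Without D2 it was 1.14, 1.44 and 1.52.

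*Rpl5* and *Rpl11* encode the proteins that, with 5S rRNA, bind MDM2 when ribosome assembly fails. *Rpl5* had 2571 and 3464 (DN1), 3475 and 4573 (DN2a), 3616 and 4127 (DN2b), and 1119, 2727, 1014 and 1244 (controls D1, D2, R1 and R2) CPM. The earlier DN1 library lay below control D2, and the 4 DN2 libraries lay above every control. Its log2FC was 0.69 ± 0.46 (SE) in DN1, 1.29 ± 0.46 (SE) in DN2a, which passed (adjusted p = 0.0433, edgeR; 0.000869 to 0.224 over 19 other settings), and 1.22 ± 0.46 (SE) in DN2b (adjusted p = 0.0554). *Rpl11* had 2119 and 1819 (DN1), 1892 and 2307 (DN2a), 2008 and 2080.3 (DN2b), and 745, 1521, 747 and 931 (controls D1, D2, R1 and R2) CPM. Here every DN library was above every control, and the log2FC of 1.0 ± 0.35 (SE) in DN2a passed (adjusted p = 0.044, edgeR; 0.000905 to 0.238 over the other settings), while 0.95 in DN2b did not (adjusted p = 0.0552). The DN2a call of *Rpl5* was lost without any single library other than control D2 (1.04 to 1.5) and that of *Rpl11* without any single library other than control D2 (0.81 to 1.16), with the log2FC in parentheses.

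*Rps19*, the gene most often mutated in Diamond-Blackfan anaemia, had 1529 and 993 (DN1), 1113 and 1057 (DN2a), 1278 and 1312 (DN2b), and 585, 1409, 558 and 659 (controls D1, D2, R1 and R2) CPM. Control D2 lay among the DN libraries, above 5 of the 6. Its log2FC of 0.32 ± 0.43 (SE) was the smallest of all members in DN2a over the control (adjusted p = 0.562, edgeR), and it was 0.33 in DN1 and 0.57 in DN2b. Without D2 the values were 0.83, 0.83 and 1.08. *Rps14*, whose loss causes the anaemia of the 5q- syndrome, had 1589 and 2368 (DN1), 2625 and 3601 (DN2a), 3112 and 3521 (DN2b), and 756, 2232, 707 and 841 (controls D1, D2, R1 and R2) CPM. The earlier DN1 library fell below D2, and all 4 DN2 libraries were above every control. Its log2FC was 0.50 ± 0.53, 1.34 ± 0.52 and 1.42 ± 0.52 (SE) in DN1, DN2a and DN2b over the control, short of the threshold (adjusted p = 0.499, 0.0597 and 0.0515, edgeR).

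*Rps6*, whose start window is printed above and which encodes the substrate of the S6 kinases, had 3577 and 3724 (DN1), 3609 and 4478 (DN2a), 3792 and 4242 (DN2b), and 1207, 3058, 1312 and 1766 (controls D1, D2, R1 and R2) CPM. All DN libraries were above all controls. Its log2FC of 0.70 ± 0.41, 1.04 ± 0.41 and 1.03 ± 0.41 (SE) did not pass (adjusted p = 0.221, 0.0609 and 0.068, edgeR). *Rps3*, a protein of the mRNA entry site that also binds NF-κB subunits, had 2979 and 3576 (DN1), 3478 and 4647 (DN2a), 3774 and 4373 (DN2b), and 1087, 2657, 1122 and 1349 (controls D1, D2, R1 and R2) CPM, again without overlap. Its log2FC of 1.29 ± 0.42 (SE) in DN2a and 1.28 ± 0.42 (SE) in DN2b passed (adjusted p = 0.0335 and 0.0365, edgeR; 0.000692 to 0.202 and 0.000701 to 0.195 over the other settings), and that of 0.78 in DN1 did not. *Rps3* and *Rpl8* are members whose counts depend little on copies, with 93.6% and 90.6% unique stretches. *Rpl8* had 2308 and 2593 (DN1), 2687 and 3096 (DN2a), 2737 and 2742 (DN2b), and 956, 1826, 1101 and 1384 (controls D1, D2, R1 and R2) CPM, also without overlap, and rose in DN2a and DN2b by a log2FC of 1.05 ± 0.31 (SE) and 0.97 ± 0.32 (SE) (adjusted p = 0.0228 and 0.034, edgeR; 0.00107 to 0.145 and 0.00142 to 0.18 over the other settings). In DN2a the call of *Rps3* was lost without the earlier DN2a library (1.51), the later DN2a library (1.02), the earlier DN2b library (1.29), control D1 (1.17), control R1 (1.14) or control R2 (1.16) and that of *Rpl8* without the earlier DN2a library (1.18), the later DN2a library (0.91), control D1 (0.95) or control R1 (0.97), and in DN2b that of *Rps3* without the earlier DN2a library (1.27), the later DN2a library (1.28), the earlier DN2b library (1.35), the later DN2b library (1.2), control D1 (1.16), control R1 (1.14) or control R2 (1.15) and that of *Rpl8* without the earlier DN2a library (0.97), the later DN2a library (0.97), the earlier DN2b library (0.94), the later DN2b library (1.0), control D1 (0.87), control R1 (0.88) or control R2 (0.92), with the log2FC in parentheses.

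*Rpl10*, which completes the 60S subunit and is mutated in T cell leukaemia, had 2777 and 3124 (DN1), 3116 and 4399 (DN2a), 3617 and 5246 (DN2b), and 1683, 3637, 1530.5 and 1406 (controls D1, D2, R1 and R2) CPM. D2 exceeded 4 of the 6 DN libraries. Its log2FC was 0.20 ± 0.47, 0.75 ± 0.47 and 0.97 ± 0.46 (SE) (adjusted p = 0.773, 0.211 and 0.116, edgeR), the second smallest of all members in DN1. Only 7.7% of its stretches were unique. *Rpl38*, required for patterning of the mouse axial skeleton, had 819.9 and 781 (DN1), 729 and 1058 (DN2a), 777 and 1156 (DN2b), and 349, 863, 286 and 353 (controls D1, D2, R1 and R2) CPM, and D2 lay above 4 DN libraries here too. Its log2FC was 0.48 ± 0.48, 0.84 ± 0.48 and 0.93 ± 0.48 (SE). *Rpl24*, mutated in Belly spot and tail mice, had 1212 to 1756 CPM in DN and 463 to 1166 in the control, without overlap, and *Rpl13a* had 2852 to 3790.4 against 939.8 to 2680.1. The log2FC of *Rpl24* was 0.58, 1.02 and 1.09, and of *Rpl13a* 0.63, 1.03 and 1.02, in DN1, DN2a and DN2b over the control. None of these 4 genes passed in any comparison. *Rpl29*, a gene with many processed copies, had 940.2 and 521 (DN1), 692 and 603 (DN2a), 723 and 631 (DN2b), and 314, 565, 326 and 379 (controls D1, D2, R1 and R2) CPM. The later DN1 library lay below D2, and the log2FC of 0.58, 0.61 and 0.68 did not pass either.

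*Rplp0*, *Rplp1* and *Rplp2* form the stalk that recruits translation factors to the large subunit. *Rplp0* was the most abundant member by CPM in 7 of the 10 libraries, with 4783 and 6412 (DN1), 7285 and 8683 (DN2a), 7788 and 7463 (DN2b), and 2341, 5559.5, 2116 and 2592 (controls D1, D2, R1 and R2) CPM. The earlier DN1 library lay below D2 and every other DN library above it. Its log2FC was 0.53 ± 0.46, 1.23 ± 0.45 and 1.16 ± 0.45 (SE) (adjusted p = 0.407, 0.05 and 0.0647, edgeR), in DN2a just over the threshold. *Rplp1* had 2399.5 and 1963 (DN1), 2629 and 2446 (DN2a), 2645 and 2593 (DN2b), and 1113, 2419.7, 1269.6 and 1448 (controls D1, D2, R1 and R2) CPM, and its log2FC of 0.18 in DN1 was the smallest of all members. *Rplp2*, with 1131 to 2197 CPM in DN and 442 to 1288 in the control, had a log2FC of 0.55, 0.99 and 1.29 in DN1, DN2a and DN2b. *Rpsa*, the small subunit protein also known as the laminin receptor precursor, led the other 3 libraries and had 4450.1 and 6403 (DN1), 6303 and 8665 (DN2a), 6602 and 8264 (DN2b), and 2049, 5468, 2341 and 2603 (controls D1, D2, R1 and R2) CPM, with a log2FC of 0.51 ± 0.47, 1.16 ± 0.46 and 1.14 ± 0.46 (SE) (adjusted p = 0.437, 0.0653 and 0.0728, edgeR). *Rps27a*, which encodes a fusion of ubiquitin with a small subunit protein, had 1967 to 3945 CPM in DN against 1009 to 2772 in the control, and a log2FC of 0.25, 0.87 and 1.01. None of these 5 genes passed in any comparison.

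The 3 members with the largest log2FC over the control, *Rpl34*, *Rpl30* and *Rpl26*, were among the 4 tested members with the fewest counts in total. *Rpl34* (chr3:130726831-130730398 on mm10) had 46.0 and 81.3 (DN1), 78.3 and 107 (DN2a), 70.2 and 104 (DN2b), and 4.70, 5.22, 11.5 and 16.8 (controls D1, D2, R1 and R2) CPM, *Rpl30* (chr15:34440505-34443640) had 15.2 and 23.6 (DN1), 22.4 and 25.7 (DN2a), 23.2 and 26.6 (DN2b), and 1.26, 1.78, 3.22 and 5.12 (controls D1, D2, R1 and R2) CPM, and *Rpl26* (chr11:68901583-68906989) had 3.71 and 13.8 (DN1), 12.2 and 15.7 (DN2a), 11.4 and 10.3 (DN2b), and 0, 0, 1.27 and 2.1 (controls D1, D2, R1 and R2) CPM. The median member had between 724 and 2620 CPM in the 10 libraries, so these genes stood far below the others in every library. D2, high in the other members, was at or near the low end of the controls here. The log2FC of *Rpl34* was 2.55 ± 0.44, 3.27 ± 0.44 and 3.17 ± 0.44 (SE) and of *Rpl30* 2.57 ± 0.43, 3.06 ± 0.43 and 3.11 ± 0.43 (SE) in DN1, DN2a and DN2b. Both passed in each of these comparisons (adjusted p = 0.00328, 0.00067 and 0.000786 for *Rpl34*, 0.00287, 0.000796 and 0.000784 for *Rpl30*, edgeR) and under all 19 other settings of each, where the adjusted p reached 0.0332 and 0.0270 at most. *Rpl26* passed in DN2a and DN2b (4.05 ± 1.27 (SE) and 3.69 ± 1.26 (SE), adjusted p = 0.0271 and 0.0404, edgeR), with an adjusted p of 0.00379 to 0.0983 and 0.00414 to 0.121 over the other settings. Its DN2a call was lost without the earlier DN2a library (4.28) or the later DN2a library (3.83) and its DN2b call without the earlier DN2a library (3.71), the later DN2a library (3.70), the earlier DN2b library (3.58), the later DN2b library (3.79) or control R1 (4.0). *Rps27*, with 0.792 to 3.31 CPM and 1.3% unique stretches, had the fewest counts in total of the tested members (21 to 74 reads per library) without a log2FC as large. It was at 0.50 in DN1, below the members' median of 0.58, and passed in DN2a only (1.35 ± 0.47 (SE), adjusted p = 0.0407, edgeR; 0.0226 to 0.2 over the other settings, lost without the earlier DN2a library (1.53), the later DN2a library (1.16), the earlier DN2b library (1.35), the later DN2b library (1.35), control D1 (1.35), control R1 (1.21) or control R2 (1.44)), and *Rps27rt*, a retrotransposed copy of it, had no count in any library and was the 1 member not tested. Of the stretches of *Rpl34*, *Rpl30* and *Rpl26*, 41.3%, 17.8% and 25.1% were unique among annotated transcripts. How far these low counts follow the mRNA of the genes was not tested.

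*Rpl14* was the only member at an ordinary level that passed in all 3 comparisons. It had 1200.5 and 1068 (DN1), 952 and 1211 (DN2a), 1020.4 and 1154 (DN2b), and 296, 645, 282 and 353 (controls D1, D2, R1 and R2) CPM, and every DN library was above every control, D2 included. The log2FC was 1.22 ± 0.38, 1.36 ± 0.38 and 1.35 ± 0.38 (SE) in DN1, DN2a and DN2b over the control (adjusted p = 0.0358, 0.0167 and 0.0182, edgeR; 0.0011 to 0.172, 0.000465 to 0.121 and 0.000454 to 0.113 over the other settings). The DN1 call was lost without any single library other than control D2 (1.08 to 1.24), the DN2a call without the earlier DN2a library (1.55) or the later DN2a library (1.13) and the DN2b call without the earlier DN2b library (1.41) or the later DN2b library (1.29), where the log2FC is in parentheses. *Rps23*, the decoding centre protein, passed in DN2a and DN2b with 1.51 ± 0.51 (SE) and 1.57 ± 0.51 (SE) (adjusted p = 0.0358 and 0.0325, edgeR; 0.00143 to 0.238 and 0.00132 to 0.162 over the other settings), and *Rpl37* and *Rps15a* had the next largest log2FC in DN2b, 1.82 ± 0.48 (SE) and 1.70 ± 0.43 (SE) (adjusted p = 0.0146 and 0.0127, edgeR; 0.00038 to 0.0925 and 0.000441 to 0.0719 over the other settings). Of these, *Rps23* was lost in DN2a without the earlier DN2a library (1.84), the later DN2a library (1.08), control D1 (1.42), control R1 (1.31) or control R2 (1.35) and in DN2b without the earlier DN2b library (1.74), the later DN2b library (1.39), control D1 (1.48), control R1 (1.37) or control R2 (1.41), *Rpl37* without the later DN2b library (1.51) and *Rps15a* without the later DN2b library (1.52). At the other end, *Rps29* and *Rpl10a* had the smallest log2FC after *Rps19* in DN2a (0.52 and 0.56), and *Rpl4*, *Rps19* and *Rpl10a* had the smallest in DN2b (0.46, 0.57 and 0.61). None of these passed. In all, 14 members passed in DN2a and DN2b and not in DN1, 10 in 1 comparison, and 50 in none.

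Between the DN stages no member passed. In DN2a over DN1, 76 of 77 members had a log2FC above 0, with a median of 0.43 beside -0.03 for all genes, of which 0.196% were called higher and 0.205% lower. In DN2b over DN1 all 77 were above 0, from 0.10 (*Rpl29*) to 1.18 (*Rpl37*), with a median of 0.48 beside -0.02 and with 1.01% of all genes called higher and 0.892% lower. In DN2b over DN2a the median was 0.04, 50 of 77 members were above 0, and 0.0% of all genes were called in either direction (0.0% lower). No member had an unadjusted p under 0.05 in these 3 comparisons (10.9%, 2.74% and 13.9% of all genes in DN2a over DN1, DN2b over DN2a and DN2b over DN1), and DESeq2 called none. Among named members *Rps14* was near the top, at 0.84 ± 0.63 (SE) in DN2a and 0.92 ± 0.63 (SE) in DN2b over DN1 (adjusted p = 0.685 and 0.583, edgeR). *Rpl37* had 539.5 and 534 (DN1), 677 and 706 (DN2a), 839.9 and 1301 (DN2b), and 213, 529, 164 and 198 (controls D1, D2, R1 and R2) CPM, with no overlap between DN1, DN2a and DN2b, and a log2FC of 1.18 ± 0.58 (SE) in DN2b over DN1 (adjusted p = 0.423). *Rps19* and *Rpl31* were lowest in DN2a over DN1, at -0.01 and 0.03. In DN2b over DN2a *Rpl37*, *Rps15a* and *Rps28* were highest, at 0.62, 0.52 and 0.32. The log2FC was larger than its own SE in 23 of 77 members in DN2a over DN1, in 32 in DN2b over DN1 and in 1 in DN2b over DN2a, and the median SE was 0.54 in each of the 3 comparisons. The DN comparisons share their libraries with those against the control and are not independent of them.

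Relative to one another the members were steadier. The share of each member in the summed members does not depend on how libraries are scaled. Over the 76 members with at least 10 counts in every library, the range of the log2 share across the 10 libraries had a median of 0.52 and was under 1 for 69. *Rps9*, *Rps4x* and *Rpl17* varied least, with ranges of 0.16, 0.23 and 0.24, and *Rps9* took 2.01 and 2.04 (DN1), 2.01 and 2.23 (DN2a), 2.01 and 2.19 (DN2b), and 2.05, 2.23, 2.25 and 2.09 (controls D1, D2, R1 and R2) percent of the sum. *Rpl34*, *Rpl30* and *Rps27*, the members with few counts described above, varied most, with ranges of 3.82, 3.56 and 1.47. The shares of 8 members were higher in every DN library than in every control (*Rps3*, *Rps3a1*, *Rpl27a*, *Rps7*, *Rps23*, *Rpl14*, *Rpl30* and *Rpl34*) and those of 2 were lower (*Rplp1* and *Rpl19*), while 3.95% of all genes were higher and 25.6% lower without overlap when set against the same sum. *Rps3*, with 93.6% unique stretches, took 2.04 and 2.16 (DN1), 2.16 and 2.17 (DN2a), 2.1 and 2.06 (DN2b), and 1.78, 1.81, 1.87 and 1.88 (controls D1, D2, R1 and R2) percent, a narrow band that still left a gap between DN and control. *Rplp1* took 1.64 and 1.19 (DN1), 1.64 and 1.14 (DN2a), 1.49 and 1.22 (DN2b), and 1.83, 1.65, 2.1 and 2.02 (controls D1, D2, R1 and R2) percent and *Rpl19*, a large subunit protein, 1.30 and 1.29 (DN1), 1.30 and 1.24 (DN2a), 1.33 and 1.19 (DN2b), and 1.78, 1.43, 1.84 and 1.68 (controls D1, D2, R1 and R2) percent. All 4 controls, D2 included, lay on 1 side of the DN libraries in these shares, for *Rplp1* only by a small margin between D2 and the earlier DN1 library.

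**Figure D3:**
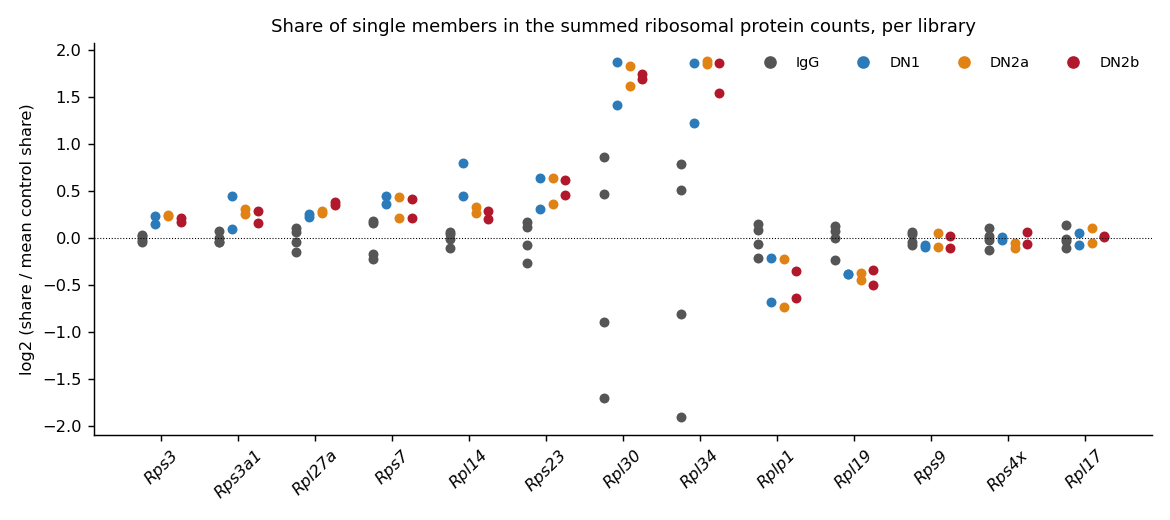
The log2 of a member's share in the summed member counts over its mean share in the 4 controls, 1 point per library, for the 10 members whose DN and control libraries do not overlap and the 3 members with the narrowest range. *Rplp1* and *Rpl19* lie below the controls in all 6 DN libraries, the other 8 above, and *Rps9*, *Rps4x* and *Rpl17* stay within 0.24 log2 units.

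Per kilobase of annotated transcript, ranked by the mean over all 10 libraries, the members began with *Rps12*, at 7507 ± 1674 CPM per kb over the 6 DN libraries (mean ± SD) and 3787 ± 2085 over the 4 controls. *Rpl41*, *Rplp1*, *Rplp0* and *Rps9* followed, with 5435 ± 842, 4902 ± 515, 5205 ± 987 and 4999.7 ± 1023 CPM per kb in DN, which differ by less than the SD of *Rpl41*. The lowest were *Rps27rt*, *Rps27*, *Rpl26*, *Rpl30* and *Rpl34*, the last of them at 169 ± 47.3 in DN. The order rests on 1 annotated transcript per gene and on reads with a single alignment, which leaves copy-rich members uncertain in this order.

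Of the paralogs, *Rpl22l1* differed most clearly. Its protein can take the place of RPL22 in the ribosome. *Rpl22l1* (chr3:28805436-28807424) had 213 and 235 (DN1), 233 and 296 (DN2a), 265 and 361 (DN2b), and 26.4, 71.3, 24.4 and 39.8 (controls D1, D2, R1 and R2) CPM. The lowest DN library had 213 CPM and the highest control, D2, had 71.3. It rose in DN1, DN2a and DN2b by a log2FC of 2.18 ± 0.42, 2.61 ± 0.43 and 2.84 ± 0.43 (SE) (adjusted p = 0.00569, 0.00155 and 0.00114, edgeR) and passed under all 19 other settings of each comparison, with an adjusted p of 0.0422 at most. Its parent *Rpl22* did not pass, as given above. The difference between both was not tested. A processed copy of *Rpl22l1*, *Gm15421*, shares 312 of its stretches and was likewise higher in DN (30 to 135 CPM in DN, at most 0.843 in the control), and its part in the result was not tested.

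*Rps27l*, which encodes a variant of RPS27 and is induced by p53, had 327 and 217 (DN1), 309 and 201 (DN2a), 279 and 213 (DN2b), and 142, 119, 109 and 125 (controls D1, D2, R1 and R2) CPM. All DN libraries were above all controls, and D2 was not the highest control. It rose by 0.84 ± 0.26, 0.95 ± 0.26 and 0.90 ± 0.26 (SE) in DN1, DN2a and DN2b (adjusted p = 0.038, 0.0165 and 0.0217, edgeR), and the adjusted p ran from 0.00949 to 0.215, 0.00654 to 0.181 and 0.00938 to 0.185 over the other settings. The DN1 call was lost without either DN1 library (log2FC 0.59 without the earlier and 1.05 without the later) or without control R1 or R2 (0.77 each), the DN2a call without the earlier DN2a library (0.65), and the DN2b call without the earlier DN2b library (0.66) or R1 (0.84). *Rpl36al* had 461 and 437 (DN1), 478 and 568 (DN2a), 515 and 539.6 (DN2b), and 198, 430.0, 209 and 290.3 (controls D1, D2, R1 and R2) CPM, with a log2FC of 0.38, 0.80 and 0.81 that did not pass, and its parent *Rpl36a* had 0.74, 1.10 and 1.21 and did not pass either. *Rpl7l1*, a protein of the nucleolus, had 186 and 178 (DN1), 196 and 142 (DN2a), 169 and 115 (DN2b), and 131, 129.8, 147 and 197 (controls D1, D2, R1 and R2) CPM. Each DN stage overlapped the control, with a log2FC of 0.02, 0.10 and -0.14, while both DN2b libraries lay below both DN1 libraries, with a log2FC of -0.16 ± 0.26 (SE) that did not pass. The parent *Rpl7* had 2419 to 4896 CPM in DN and 1117 to 2374 in the control, and rose in DN2a and DN2b (1.5 ± 0.42 (SE) and 1.46 ± 0.42 (SE), adjusted p = 0.0173 and 0.0208, edgeR; 0.00101 to 0.116 and 0.00113 to 0.127 over the other settings). The calls of *Rpl7* were lost in DN2a without the earlier DN2a library (1.68) or the later DN2a library (1.29) and in DN2b without the earlier DN2b library (1.52), the later DN2b library (1.39) or control R1 (1.34).

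*Rps4l* fell in DN2a and DN2b, as no other of the 7 paralogs tested did. In GENCODE vM21 it is annotated as a transcribed processed pseudogene, so that it is itself a processed copy, of *Rps4x*. It had 8.44 and 0.433 (DN1), 0.546 and 0.647 (DN2a), 0.585 and 0.647 (DN2b), and 4.02, 2.33, 28.4 and 44.6 (controls D1, D2, R1 and R2) CPM. The controls split into R1 and R2, above 28 CPM, and D1 and D2, below 5, and the earlier DN1 library exceeded D1 and D2. Its log2FC was -2.36 ± 1.28, -5.01 ± 1.54 and -4.95 ± 1.55 (SE) in DN1, DN2a and DN2b over the control (adjusted p = 0.188, 0.0255 and 0.0289, edgeR). The DN2a and DN2b calls were lost with D1 and D2 as the only controls (-2.65 and -2.58), without either library of the stage itself (-4.83 and -5.16 in DN2a without the earlier and the later one, -4.91 and -5.0 in DN2b), and in DN2b without R1 (-4.67) or R2 (-4.30), with an adjusted p of 3.83e-05 to 0.148 and 6.55e-05 to 0.156 over the settings. *Rps4x*, the X-linked parent, had 3176 to 4796 CPM in DN and 1298 to 3429 in the control and did not pass. *Rpl10l* and *Rpl39l*, both known from the testis, were high in the same 3 libraries, 1 of each stage. *Rpl10l* had 0.133 and 6.22 (DN1), 5.68 and 0.359 (DN2a), 0 and 23.6 (DN2b), and 0.581, 0.277, 0.0848 and 0 (controls D1, D2, R1 and R2) CPM, and *Rpl39l* had 0.707 and 3.57 (DN1), 4.26 and 0.719 (DN2a), 0.26 and 11.4 (DN2b), and 0.727, 0.949, 0.226 and 0.135 (controls D1, D2, R1 and R2) CPM. The later DN1 library, the earlier DN2a library and the later DN2b library led in both, and neither gene passed in any comparison. *Rpl39*, the parent of *Rpl39l*, had 1181 to 1972 CPM in DN and 481 to 1498 in the control, with a log2FC of 0.61, 0.76 and 1.0 that did not pass. *Rpl3l*, a muscle paralog of *Rpl3*, stayed at or below 1.58 CPM and was not tested, while *Rpl3* rose in DN2a and DN2b (1.21 ± 0.41 (SE) and 1.21 ± 0.41 (SE), adjusted p = 0.0384 and 0.0393, edgeR; 0.00177 to 0.239 and 0.00178 to 0.209 over the other settings). Its calls were lost in DN2a without the earlier DN2a library (1.45), the later DN2a library (0.91), the earlier DN2b library (1.21), the later DN2b library (1.21), control D1 (1.08), control R1 (1.09) or control R2 (1.11) and in DN2b without the earlier DN2a library (1.21), the later DN2a library (1.21), the earlier DN2b library (1.37), the later DN2b library (1.04), control D1 (1.09), control R1 (1.10) or control R2 (1.12). *Rps19bp1* had 14.2 to 37.0 CPM and did not pass.

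**Figure D4:**
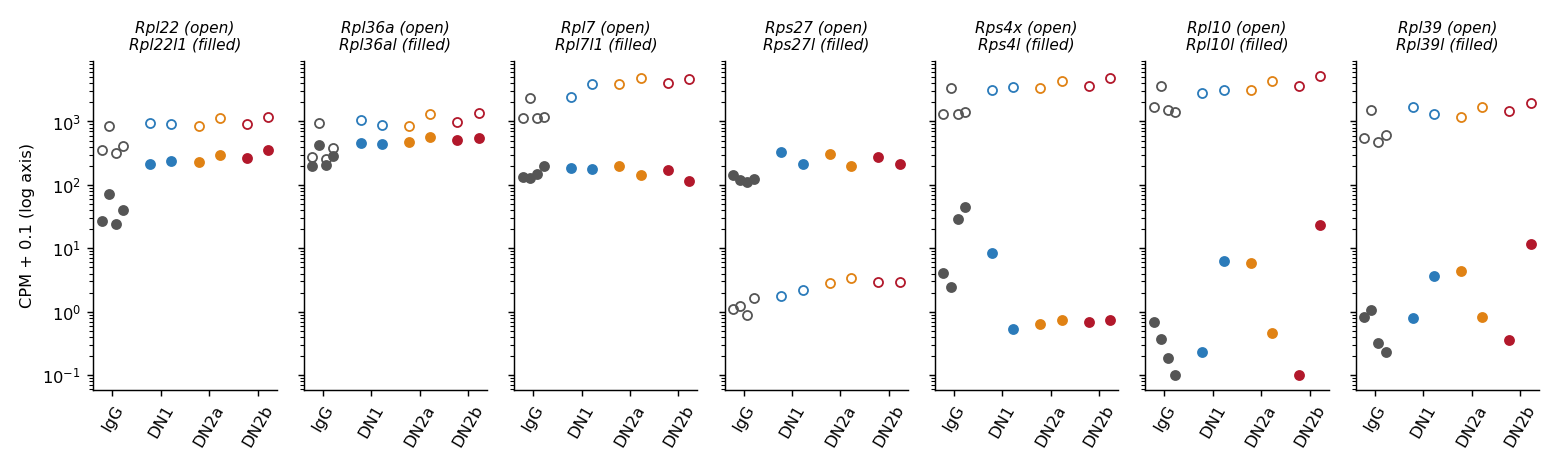
CPM plus 0.1 on a log axis for 7 parent genes (open circles) and their paralogs (filled circles), 1 point per library by group. *Rpl22l1* lies between 213 and 361 CPM in the DN libraries and between 24.4 and 71.3 in the controls, *Rps4l* is highest in control R2 at 44.6 CPM, and *Rpl10l* and *Rpl39l* are high in the same 3 DN libraries.

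Part of the processed copies of member genes, which the symbol rule left out, had counts in the DN libraries and few or none in the control. Of 18 annotated pseudogene rows that share at least 20 stretches of 36 bases with a member or paralog, 9 had every DN library above every control. All 9 were among the 14 of these rows that were tested, and 21.7% of all genes tested had such a split. Another 4 of the 18 rows stayed below 3 CPM in every library, 2 had no count in any, and 3 overlapped between DN and control. The largest, *Rpl14-ps1* (chr7:45324965-45325617, mm10), had 393 and 733 (DN1), 772 and 941 (DN2a), 611 and 848 (DN2b), and 0.0969, 0.119, 0.141 and 0.0674 (controls D1, D2, R1 and R2) CPM. *Rpl31-ps12* (chr16:16819749-16820123) had 204 and 566 (DN1), 492 and 799.9 (DN2a), 466 and 758 (DN2b), and 0.194, 0.633, 0.255 and 0.169 (controls D1, D2, R1 and R2) CPM. Every DN library was above 203 CPM and every control, D2 included, below 1 CPM on both rows. *Rps15a-ps6*, *Rps15a-ps4*, *Gm6654* (a copy of *Rps26*) and *Rps19-ps3* had 104 to 408, 50.3 to 456, 55.3 to 210 and 19.3 to 35.6 CPM in DN and at most 4.43, 5.40, 1.38 and 0.870 in the control. The 9 rows also hold *Gm10653* (a copy of *Rps2*), where D2 came close to the DN libraries, with 47.9 CPM against 52.8 to 132 in DN and at most 7.01 in the other controls. Of the 3 rows that overlapped, *Gm8580* (a copy of *Rpl29*) was higher in 3 controls, with 4.42 and 17.0 (DN1), 0.656 and 20.7 (DN2a), 0.846 and 18.4 (DN2b), and 1.6, 46.3, 31.0 and 32.6 (controls D1, D2, R1 and R2) CPM. *Gm10548* (*Rpl29*) had 2.91 to 11.4 CPM in DN and 0.630 to 10.7 in the control, and *Gm5779* (*Rplp0*) had 1.02 to 9.15 and 1.15 to 7.91. All 18 rows together made up 941 to 3041 CPM in DN and 12.3 to 115 CPM in the control, a small part of the members' sum.

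*Rpl14-ps1* matches the coding transcript of *Rpl14* over 656 aligned bases with 98.9% identity, and 515 stretches of 36 bases are the same in both. Reads from 1 can be told from the other only at the few differing bases, as in the following 30 bases of coding sequence, with the differing bases in capitals (GENCODE vM21).
Rpl14: gctgctatcctgaaagcttctccCaaAaaa
Rpl14-ps1: gctgctatcctgaaagcttctccTaaGaaa
*Rpl31-ps12* and *Rpl31* differ in the same manner, at 4 of 375 aligned bases.
Rpl31: catccatggagtgggCttcaagaagcGtgc
Rpl31-ps12: catccatggagtgggTttcaagaagcAtgc
The origin of the counts on these copies was not tested. All 10 tables list the same gene rows, but the annotation used for counting is not given in the sources used here, and a difference in annotation, alignment or mouse material between the DN and the control libraries cannot be told apart from a difference in expression for these rows. In the 9 rows the counts move with the same contrast as those of the members, and counts of *Rpl14*, *Rpl31*, *Rps15a*, *Rps19*, *Rps26*, *Rps2*, *Rpl7a* and *Rpl22l1* are uncertain in the comparisons with the control. Adding the -ps rows to their parents before the fit changed the counts of calls to 3, 24 and 23 of 77 in DN1, DN2a and DN2b, and the summed share with all 18 rows gave a ratio of 2.14 in place of 2.11.

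**Figure D5:**
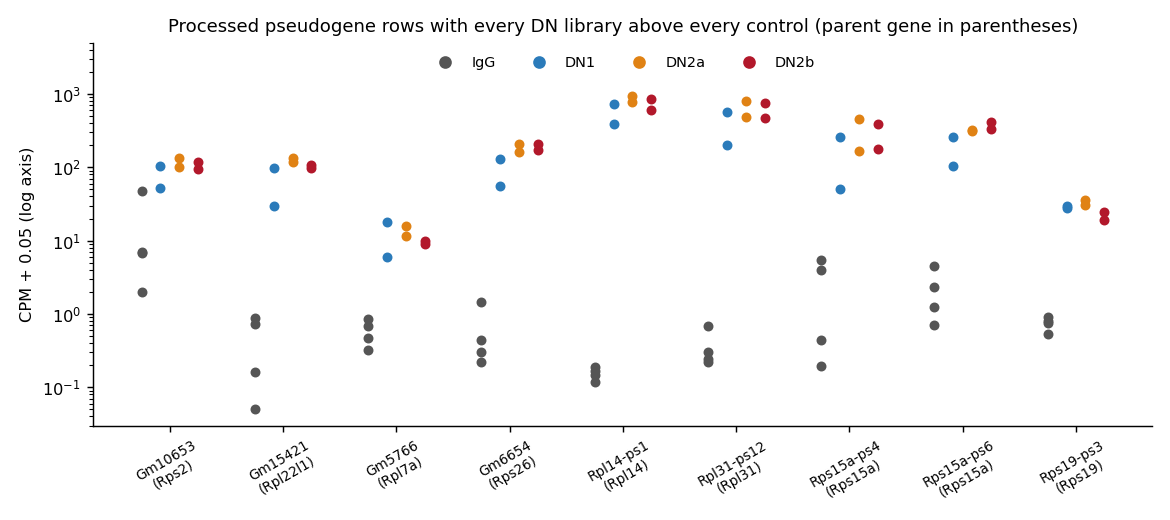
CPM plus 0.05 on a log axis for the 9 pseudogene rows in which every DN library exceeds every control, 1 point per library, with the gene each was copied from in parentheses. *Rpl14-ps1* lies between 393 and 941 CPM in the DN libraries and between 0.0674 and 0.141 CPM in the controls. Of all genes tested, 21.7% had every DN library above every control.

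Other genes of ribosome supply were taken from fixed lists. Over all genes tested, 14.3%, 21.2% and 19.9% rose and 17.0%, 24.3% and 22.5% fell in DN1, DN2a and DN2b over the control, and the calls within each list are to be read beside these shares. *Fau* and *Gnb2l1* encode further components of the ribosome (RPS30 fused to a ubiquitin-like protein, and RACK1). *Gnb2l1* had 2951 and 4437 (DN1), 4527 and 5429 (DN2a), 4797 and 5219 (DN2b), and 1341, 3230.5, 1263 and 1392 (controls D1, D2, R1 and R2) CPM and rose in DN2a and DN2b (1.35 ± 0.46 (SE) and 1.35 ± 0.46 (SE), adjusted p = 0.0384 and 0.0405, edgeR). *Fau* had 1391 and 1122 (DN1), 1169.6 and 1437 (DN2a), 1260.2 and 1386 (DN2b), and 732, 1992, 843 and 967 (controls D1, D2, R1 and R2) CPM, so that D2 was above all DN libraries, and its log2FC was -0.16, 0.10 and 0.11.

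Of 30 ribosome biogenesis genes (*Ncl*, *Npm1*, *Fbl*, subunits of RNA polymerase I and others), 14, 18 and 15 rose in DN1, DN2a and DN2b over the control (46.7%, 60% and 50%, beside 14.3%, 21.2% and 19.9% of all genes) and none fell, with medians of 0.91, 1.03 and 0.84. Their summed level was 8377 and 7376 (DN1), 8148 and 8223 (DN2a), 7312 and 6742 (DN2b), and 2909.9, 2762, 3692 and 5894 (controls D1, D2, R1 and R2) CPM. D2 was the lowest of all libraries in this sum, while it was the highest control in 73 of the 77 members. The share of all genes with D2 as the highest control is not given here. Of 14 other mRNAs with a TOP start (*Eef1a1*, *Eef2*, *Tpt1* and others), 3, 7 and 7 rose and none fell (21.4%, 50% and 50%, beside the same shares of all genes, to which DN1 is near), with medians of 0.60, 0.94 and 0.87 and a summed level of 29767 and 47188 (DN1), 47507 and 54390.0 (DN2a), 48762 and 50938 (DN2b), and 19148, 32294, 16606 and 18638 (controls D1, D2, R1 and R2) CPM, D2 again being the highest control. The 77 mitochondrial ribosomal protein genes, which belong to another ribosome, summed to 5842 and 5322 (DN1), 6336 and 5619.5 (DN2a), 5948 and 4985 (DN2b), and 3232, 3249, 3021 and 3639.5 (controls D1, D2, R1 and R2) CPM. There D2 lay with the other controls and below all DN libraries, and 23, 51 and 37 of 77 rose (29.9%, 66.2% and 48.1%, beside 14.3%, 21.2% and 19.9% of all genes). *Mrpl52* was the 1 gene of the list that fell in DN2a, and none fell in DN1 or DN2b. Between the DN stages no gene of these 3 lists passed, nor did *Fau* or *Gnb2l1*. Of 11 growth regulators upstream of ribosome production (*Myc*, *Mycn*, *Mtor*, *Larp1* and others), 1, 2 and 1 rose, shares below those of all genes, and none fell. *Rps6kb1*, the S6 kinase gene, rose in DN2a alone by this test, and the difference to DN1 and DN2b did not pass. *Mycn* rose in all 3 and had 67.8 and 39.5 (DN1), 14.8 and 29.8 (DN2a), 5.40 and 11.1 (DN2b), and 0.145, 0.356, 0.0283 and 0.202 (controls D1, D2, R1 and R2) CPM, and *Myc* had 235 and 240.0 (DN1), 142 and 175 (DN2a), 121 and 165 (DN2b), and 42.9, 118, 67.9 and 162 (controls D1, D2, R1 and R2) CPM, with DN1 above every control and a log2FC of 1.05 ± 0.40 (SE) in DN1 (adjusted p = 0.0716, edgeR). Replication-dependent histone rows summed to 57.4 to 127 CPM and *Rn45s*, the rRNA precursor, to 1288 to 10057 CPM, and in both sums DN and control overlapped. Of 32 histone rows tested, 14, 24 and 22 rose and 2 fell in each comparison with the control (43.8%, 75.0% and 68.8% higher, beside 14.3%, 21.2% and 19.9% of all genes).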

How the data were processed

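RNA (RIN above 8 by the study's methods) was prepared as stranded total RNA libraries per the labels and sequenced on an Illumina HiSeq. The authors aligned the first 36 bases of read 1 to mm10 with TopHat and counted reads per gene with htseq-count (HTSeq 0.6.1p1, intersection-strict), and deposited these raw counts, 1 table per sample. The submitters' processing notes also name TopHat2 and Cufflinks 2.2.1. The annotation and the strand setting are not given in the sources used here. Such counting leaves out reads that align to several places, which lowers genes with near-identical copies.

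Rows that name no gene (no feature, ambiguous, not aligned, not unique) were left out of library sizes; within the tallied reads, those without a feature made up 2.83% to 10.0% and ambiguous reads 0.904% to 1.28%. Genes were kept at 1 CPM or more in at least 2 libraries, the threshold in the study's methods. Of 18854 genes with a count in the tables used here, 12221 remained, and both numbers differ from those in the study's methods. The 4 groups (DN1, DN2a and DN2b with 2 libraries each, control with 4) entered 1 fit with TMM scaling in edgeR 4.0.16 (R 4.3.3, limma 3.58.1), with the quasi-likelihood test and Benjamini-Hochberg adjustment over these genes, and a gene was called at an adjusted p under 0.05. The log2FC uses a prior count of 0.125, and its SE is the log2FC over the square root of F. DESeq2 1.42.0 was an alternative. LSK cells for the cultures were isolated independently per the study, but libraries of different DN stages may come from the same isolate. The p-values measure only the spread between these libraries. Uniqueness of 36-base stretches, transcript lengths and coordinates are from GENCODE vM21 (mm10, 1 transcript per gene), and start windows from RefSeq (GRCm38.p6). Sums of members get no p, and a planned test of the summed share is not reported. Named were members of known roles, the 3 largest and 3 smallest log2FC per comparison, every paralog with its parent, members not tested, the widest and narrowest shares and the highest and lowest per kb; *Rpl8*, *Rps23* and, against the control, *Rpl37*, *Rps15a*, *Rps6kb1*, *Mrpl52*, *Cd44*, *Il7r* and the pseudogene rows were named after their values were seen. A gene of the fixed lists is not reported here. Members and lists were chosen with earlier results of these data known.

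The earlier DN2a and DN2b libraries carry the same date in their labels, as do the later ones, and DN1 has other dates. Deviations from the stage means over 12221 genes correlated between the earlier and between the later libraries of 2 stages with r = 0.0583 (DN1 and DN2a), 0.2111 (DN1 and DN2b) and 0.4649 (DN2a and DN2b). The main fit did not use this pairing of DN2a and DN2b, so the log2FC, SE and p given for them are unpaired. A fit with the label year as a replicate block was an alternative. Python 3.11.15 with numpy 2.4.6, pandas 2.3.3, biopython 1.88 and matplotlib 3.10.9 was used for the rest.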

Additional observations from a re-analysis of the deposited data

Results flagged for a closer look

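Among 32 values tested over the 4 controls, 17 had 1 library whose gap to the next, divided by the range of the 4, was above Dixon's 95% critical value. Chance alone flags about 1 in 20 such groups, and the values share libraries and are not independent. Control library D2 was the high one in 16. The gap was 0.864 of the range for the summed share of all members, 0.853 for the large and 0.877 for the small subunit. Of single members it was 0.830 for *Rpl22*, 0.866 for *Rpl5*, 0.876 for *Rpl10*, 0.830 for *Rpl24* and 0.884 for *Rpl38* in the large subunit, 0.862 for *Rplp0* and 0.850 for *Rplp2* in the stalk, and 0.882 for *Rps19*, 0.913 for *Rps14*, 0.833 for *Rps3*, 0.882 for *Rps27a* and 0.838 for *Rpsa* in the small subunit. It was 0.838 for the summed CPM of the other mRNAs with a TOP start. In the summed -ps pseudogene rows D1 was the low library, at 0.850 of the range. Over all 77 members with counts, D2 was the highest control in 73, and in 47 its gap was above the critical value. The same shares over all genes are not given here, so whether this is particular to the members cannot be told.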

How the results depend on the processing

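No called log2FC of a named gene reversed under any alternative run. Counts of members called higher depended on the controls and the scaling. With R1 and R2 as the only controls they were 69, 76 and 76 in DN1, DN2a and DN2b (13.3%, 21.3% and 20.2% of all genes were called higher), with medians of 1.16, 1.6 and 1.65. With D1 and D2 only, they were 3 in DN2a and 3 in DN2b (13.1% and 10.6% of all genes), with medians of 0.16, 0.60 and 0.64. Library size alone gave 12, 47 and 52 calls (21.2%, 22.4% and 21.5% of all genes), and library totals that include the summary lines gave 14, 47 and 40 (20.2%, 21.5% and 18.9%). DESeq2 called 35 in DN2a and 39 in DN2b (22% and 21.1%), and fits of only the groups compared called 8 and 6 (20.6% and 17.1%). Leaving out 1 library at a time gave 2 to 73 calls in DN1, 2 to 77 in DN2a and 2 to 76 in DN2b, with the highest count without D2 (16.4%, 23.5% and 22.3% of all genes), and medians from 0.42 to 1.08, 0.75 to 1.53 and 0.90 to 1.6. Between the DN stages 0 members were called in each of these fits, with medians from 0.16 to 0.65 (DN2a over DN1), -0.18 to 0.31 (DN2b over DN2a) and 0.35 to 0.67 (DN2b over DN1). The cause of these shifts was not tested. Library size alone also moved the median of all genes to 0.27 in DN1 over the control, against 0.88 for the members, and to -0.22 and -0.21 in DN2a and DN2b over DN1.

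With the label year as a replicate block in a fit of the DN libraries, 0 members were called in each of the 3 comparisons, as without it, and the medians were 0.42, 0.05 and 0.50. The block was run for these 3 comparisons only, and it joined DN1 to the other stages by year although the dates of DN1 differ. Over all genes it moved the calls from 28 higher and 4 lower to 44 and 23 in DN2a over DN1 and from 119 and 61 to 146 and 92 in DN2b over DN1. In DN2b over DN2a, the stages that share dates, 0 genes were called with the block and 0 without it. The difference in the summed share, 9.44 points, ran from 8.61 to 11.5 with 1 library left out and was 2.34 over the 19 members with at least 50% unique stretches, a choice made after seeing the data that sums fewer genes by construction. Depth limits *Rpl26* and *Rps27*, with counts near the floor in some libraries.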
